A study of Mus musculus with 2 samples.

Results

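The coagulation and fibrinolysis genes of mouse liver are described here: the clotting factors, the chains of fibrinogen, the inhibitors of clotting, the genes of clot breakdown, and the enzymes and carriers that modify or export these proteins. They were chosen by name, as 37 genes, and not by any measured value, though earlier results of these data were known. Of the 37 genes 35 had a probe on the array, out of 19318 named genes in all, and 31 gave signal above background in both livers. Klkb1, which encodes plasma prekallikrein, and Cpb2, which encodes the carboxypeptidase that protects clots from breakdown, had no probe under these symbols and were not analysed here.

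RNA of whole liver from 24-week-old mice was measured on 2 single-colour microarrays. The first was Twist2-Cre/A20fl/fl, called CKO, in which both alleles of A20 are floxed, and the other was Twist2-Cre, called Control. Both genotypes carry the Twist2-Cre allele, which recombines floxed genes in mesenchymal lineages, while most proteins of plasma clotting are made by hepatocytes, which lie outside those lineages. A20, encoded by Tnfaip3, is an enzyme that edits ubiquitin chains and restrains inflammatory NF-kB signalling. The sources used here do not say how many mice each RNA came from.

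Having 1 array per genotype, the design allows no test and no estimate of the spread between animals, array and genotype cannot be told apart, and this number of arrays sets the precision. Each ratio is the log2 level in CKO minus that in Control after normalization with an offset, which shrinks the ratios of dim genes. Deposited intensities, in arbitrary units, are the authors' processed values, and how they were made is not stated. Each probe has its own brightness, so levels are compared between livers and never between genes. A gene was counted as higher or lower when it differed by at least 1.5-fold, a size chosen without a test. The targeted gene Tnfaip3 had a deposited intensity of 38 in CKO liver and 41 in Control liver. The part of the transcript that its probe reads is not known, and whole liver holds many cells without the deletion, so this value does not check the label. The labelled tissue was borne out by albumin, the main protein of hepatocytes, with a deposited intensity of 36770 in CKO liver and 37445 in Control liver.

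Clotting runs as a cascade in which circulating precursors are cut into active proteases. Tissue factor with factor VII starts it from outside the vessel and the contact proteins from within, and both routes meet at factor X, which with factor V turns prothrombin into thrombin. Thrombin cuts fibrinogen into fibrin, antithrombin and the protein C system hold thrombin in check, and plasmin dissolves the clot. The liver is the source of nearly all of these plasma proteins, and fibrinogen is a classical acute phase protein whose genes respond to interleukin-6.

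The promoters of 5 genes are shown because the results turn on them: the fibrinogen genes, whose levels were near equal in the livers, and Pros1 and F11, which had the largest ratios among the 31 genes on the normalized scale. In the deposited values the dimmer genes Procr (0.69) and F3 (0.62) lay above F11 (0.56). The sequences run 5′ to 3′ from 250 bases before to 50 bases after the RefSeq gene start (GRCm38.p6). Capitals mark the letters of 4 motifs, searched on both strands: CTGGGAA, the core of an interleukin-6 response element, TTCNNNGAA, a palindrome bound by STAT factors, TTGCNNAA, a C/EBP-type motif, and GTTAAT, one arm of the site of the hepatocyte factor HNF1.
Fga, chr3:83025903-83026202, plus strand: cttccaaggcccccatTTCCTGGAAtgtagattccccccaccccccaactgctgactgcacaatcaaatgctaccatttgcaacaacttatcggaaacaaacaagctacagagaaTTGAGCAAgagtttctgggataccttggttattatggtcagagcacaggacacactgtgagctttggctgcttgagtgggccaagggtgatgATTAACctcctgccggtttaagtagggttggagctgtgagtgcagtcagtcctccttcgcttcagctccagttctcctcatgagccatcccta
Fgb, chr3:83049814-83050113, minus strand: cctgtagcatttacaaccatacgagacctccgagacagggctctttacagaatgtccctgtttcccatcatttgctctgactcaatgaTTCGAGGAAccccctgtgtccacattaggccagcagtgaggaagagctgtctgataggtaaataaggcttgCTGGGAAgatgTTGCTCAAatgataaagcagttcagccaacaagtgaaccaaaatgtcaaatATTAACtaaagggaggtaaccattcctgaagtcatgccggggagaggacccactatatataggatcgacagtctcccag
Fgg, chr3:83007474-83007773, plus strand: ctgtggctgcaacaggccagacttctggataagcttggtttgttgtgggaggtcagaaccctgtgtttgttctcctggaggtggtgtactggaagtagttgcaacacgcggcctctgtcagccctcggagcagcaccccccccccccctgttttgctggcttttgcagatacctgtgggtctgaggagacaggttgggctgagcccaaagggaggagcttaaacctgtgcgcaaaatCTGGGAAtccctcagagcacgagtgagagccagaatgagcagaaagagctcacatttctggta
Pros1, chr16:62854057-62854356, plus strand: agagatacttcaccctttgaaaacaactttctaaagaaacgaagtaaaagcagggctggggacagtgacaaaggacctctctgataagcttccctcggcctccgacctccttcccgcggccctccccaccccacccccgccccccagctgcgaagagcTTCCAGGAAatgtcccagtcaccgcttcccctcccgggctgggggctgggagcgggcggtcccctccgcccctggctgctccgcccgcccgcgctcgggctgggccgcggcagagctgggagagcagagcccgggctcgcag
F11, chr8:45261982-45262281, minus strand: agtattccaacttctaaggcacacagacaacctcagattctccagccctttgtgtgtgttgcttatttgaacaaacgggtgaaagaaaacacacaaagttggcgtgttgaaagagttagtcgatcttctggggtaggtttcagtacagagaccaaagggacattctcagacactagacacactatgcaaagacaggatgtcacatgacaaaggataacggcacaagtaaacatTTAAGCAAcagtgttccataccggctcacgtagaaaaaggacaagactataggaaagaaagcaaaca

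CTGGGAA was found in the Fgb and Fgg windows, and TTCNNNGAA in those of Fga, Fgb and Pros1. The C/EBP-type letters stood in Fga, Fgb and F11, and GTTAAT in Fga and Fgb. Of all 32851 promoter windows in the table, 11.1% held CTGGGAA, 8.3% TTCNNNGAA, 10.8% TTGCNNAA and 7.1% GTTAAT. Among the 29 genes of the list with a window, CTGGGAA occurred in 5, TTCNNNGAA in 4, TTGCNNAA in 12 and GTTAAT in 5. In F9 a CTGGGAA match and a TTCNNNGAA match overlap. These matches are letters in a window and say nothing of a factor's binding.

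As a whole the genes of clotting and clot breakdown were at near equal levels in the livers. Of the 31 genes above background in both, 1 was higher by 1.5-fold or more in CKO liver and 0 were lower by that much, with 0 past 2-fold in either direction. Over all 14143 genes above background in both livers, 1.7% were higher and 0.417% lower by 1.5-fold or more, and 0.636% were higher and 0.0778% lower by 2-fold or more, so the count in this list lies near the background. The median log2 ratio of the list was 0.03, with values from -0.25 for F7 to 0.64 for Pros1, against a median of -0.02 over all genes. In this list 17 genes had a ratio above 0 and 13 below 0, where 5963 of all 14143 genes lay above 0 and 8166 below. The deposited values put 3 of 31 genes at least 1.5-fold higher and 1 lower, where 8.76% and 5.63% of 14638 genes did so, and the list's median there was -0.03.

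**Figure D1:**
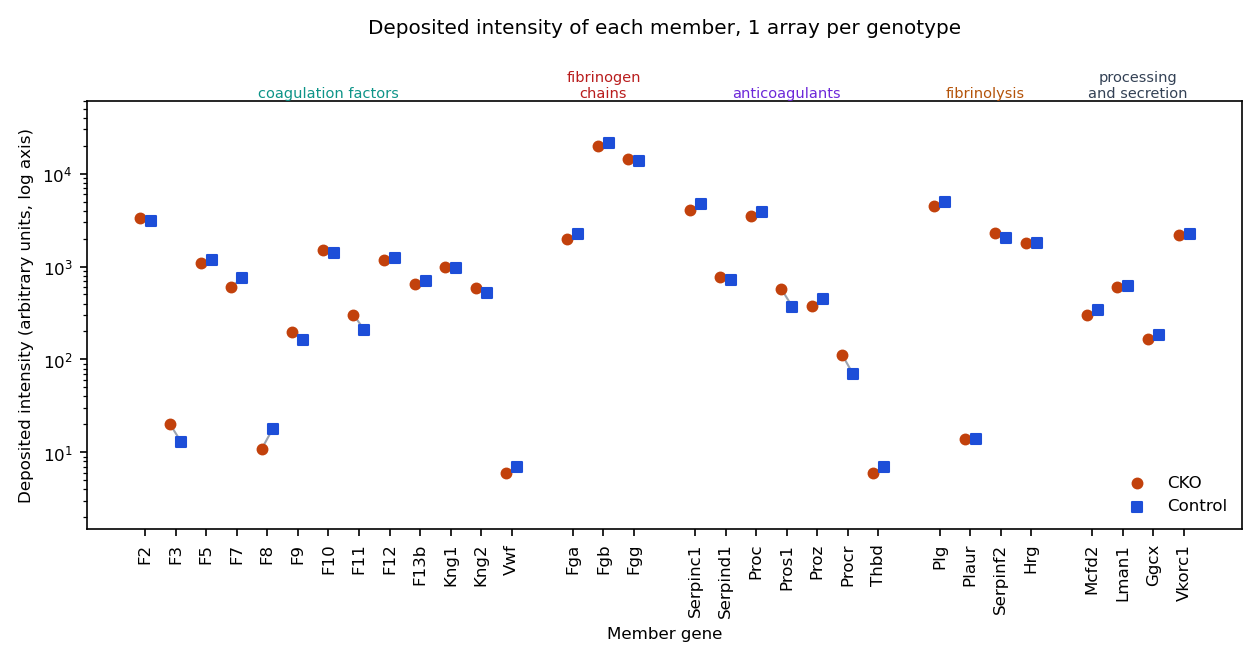
Deposited intensity (log axis, arbitrary units) of each gene listed on both arrays, with the CKO liver as a circle left of the Control liver as a square and genes grouped by role. F5 and Fga are means of 2 probes. The pairs lie close together for most genes, with Pros1 at 574 in CKO liver and 371 in Control liver among the wider ones.

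The genes of the 3 fibrinogen chains, which lie next to each other on chromosome 3 with no other coding gene between them, stayed close to equal. Fgb, the beta chain, had a deposited intensity of 19913 in CKO liver and 21484 in Control liver, a normalized log2 ratio of 0.00. Fgg, the gamma chain, had 14473 in CKO liver and 13789 in Control liver, with a ratio of 0.19. Fga, the alpha chain, was read by 2 probes, 1 with 3152 in CKO liver and 3635 in Control liver and the other with 798 in CKO liver and 852 in Control liver. Both Fga probes were slightly lower in CKO liver, with normalized ratios of -0.09 and -0.03. In the deposited values Fgb and both Fga probes were thus a little lower and Fgg a little higher in CKO liver. The median of the 3 chains was 0.00 on the normalized scale and -0.11 in the deposited values, where the median of all genes was -0.04. The brightest 708 genes, the 3 chains among them, had medians of -0.03 on the normalized scale and -0.12 in the deposited values.

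Other acute phase genes spread more widely on the same arrays. Of 20 acute phase genes above background in both livers 6 were at least 1.5-fold higher in CKO liver and 0 lower, with a median ratio of 0.35. Of the 20 genes 17 had a ratio above 0 and 3 below, where 5963 of all 14143 genes lay above 0 and 8166 below. The serum amyloid gene Saa1 had a deposited intensity of 4707 in CKO liver and 1047 in Control liver, a ratio of 2.20, and Saa3 had 488 in CKO liver and 72 in Control liver, a ratio of 2.21. Others of the 20 lay near 0, as the fibrinogen genes did, among them Itih3 (0.01), Apcs (0.14), Crp (0.16) and Itih4 (-0.16). Socs3 was lower in CKO liver, at -0.56. Outside the 20, Fgl1, a fibrinogen-like protein secreted by hepatocytes, had a ratio of 0.71. Its deposited intensity was 2949 in CKO liver and 1947 in Control liver. Whether fibrinogen differs from these genes was not tested, since there is 1 array per genotype.

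The factors that start and carry the cascade had small ratios on both sides of 0. Of 13 clotting factor genes above background in both livers 9 had a ratio above 0 and 4 below, F5 among the 9 although its probes disagreed. Over all 14143 genes 5963 had a ratio above 0 and 8166 below. Of the 13 genes 0 were past 1.5-fold, and the median was 0.11. F11, which encodes factor XI of the intrinsic route, had the largest normalized ratio, with a deposited intensity of 304 in CKO liver and 206 in Control liver, a ratio of 0.50 or 1.41-fold. F9, which encodes its substrate factor IX, had 196 in CKO liver and 163 in Control liver (0.24). F11 and F7 were the high and low ends of this group on the normalized scale, while F3 (0.62) and F8 (-0.71), both dim, were its ends in the deposited values.

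F7, which encodes the partner of tissue factor, had the lowest normalized ratio, at 600 in CKO liver and 759 in Control liver (-0.25, 1.19-fold lower). F10, at the point where the routes meet, had 1500 in CKO liver and 1382 in Control liver (0.16), and F2, prothrombin, had 3291 in CKO liver and 3121 in Control liver (0.20). F7, F10 and Proz, which encodes the anticoagulant cofactor protein Z, are neighbours on chromosome 8, and their ratios of -0.25, 0.16 and -0.19 did not run one way. F5, the cofactor of factor X, had 2 probes that disagreed in direction, 1 with 263 in CKO liver and 211 in Control liver and the other with 1925 in CKO liver and 2151 in Control liver. The normalized ratios of these probes were 0.29 and -0.09, so no direction is given for F5.

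The contact genes showed the same narrow range. F12, which encodes factor XII, had 1186 in CKO liver and 1223 in Control liver (0.03). The kininogens, which carry prekallikrein and factor XI and release bradykinin, had 1000 in CKO liver and 970 in Control liver for Kng1 (0.11), and 586 in CKO liver and 518 in Control liver for Kng2 (0.21). Kng1 and Kng2 lie side by side on chromosome 16 next to Hrg and resemble each other in sequence, so a probe may not separate them fully. F13b, the carrier subunit of the fibrin-crosslinking factor XIII, had 652 in CKO liver and 707 in Control liver (-0.04).

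**Figure D2:**
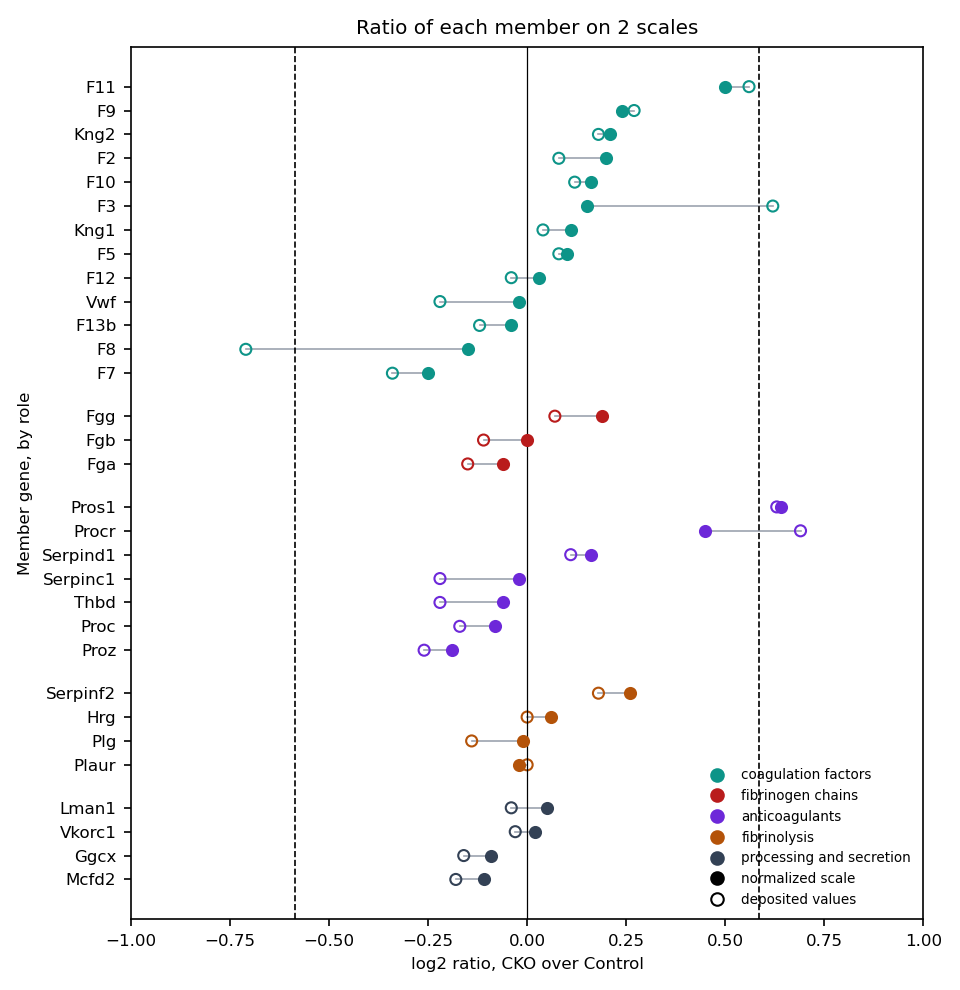
Log2 ratio of CKO over Control for the 31 genes above background in both livers, by role, on the normalized scale (filled) and in the deposited values (open), with dashed lines at 1.5-fold. Pros1 lies past the upper line on both scales, while F3, F8 and Procr pass a line only in the deposited values.

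Among the inhibitors of clotting Pros1 stood highest. Pros1 encodes protein S, the cofactor of activated protein C, and had a deposited intensity of 574 in CKO liver and 371 in Control liver, a normalized ratio of 0.64 or 1.55-fold. It was the 1 gene of the list past 1.5-fold, and the middle 90% of genes of similar level ran from -0.39 to 0.46. Its ratio was 0.63 to 0.70 over 9 other processing alternatives but -0.82 against the local background column. That column read 91.9% of the Pros1 spot's own intensity in CKO liver and 77.8% in Control liver. All the alternatives re-read the same 1 probe. Lifting the background filter, restricting to genes of at least median level and taking the brightest probe could not change its ratio.

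Procr, the endothelial receptor that helps activate protein C, had 111 in CKO liver and 69 in Control liver, a normalized ratio of 0.45 and a deposited ratio of 0.69. The normalized ratio of Procr lay inside the range of genes of similar level, -0.33 to 0.48. Proc, which encodes protein C itself, was near equal, with 3452 in CKO liver and 3897 in Control liver (-0.08). Thus the receptor and the cofactor of the protein C system had the 2 largest ratios among the 7 anticoagulant genes above background, while the zymogen did not. Thrombomodulin (Thbd), which turns thrombin into an activator of protein C, was close to background, with 6 in CKO liver and 7 in Control liver.

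The direct inhibitors of thrombin were near equal. Serpinc1, which encodes antithrombin, had 4023 in CKO liver and 4675 in Control liver (-0.02), and Serpind1, heparin cofactor II, had 766 in CKO liver and 708 in Control liver (0.16). Proz had 375 in CKO liver and 450 in Control liver (-0.19). The median of the 7 genes was -0.02 on the normalized scale and -0.17 in the deposited values. Tfpi, the inhibitor of the tissue factor route, was not above background in either liver.

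The genes of clot breakdown differed little. Plg, which encodes plasminogen, had 4456 in CKO liver and 4919 in Control liver (-0.01), and Serpinf2, which encodes the plasmin inhibitor alpha2-antiplasmin, had 2303 in CKO liver and 2034 in Control liver (0.26, 1.20-fold). Hrg, the histidine-rich glycoprotein that binds plasminogen, had 1807 in CKO liver and 1810 in Control liver (0.06). The protease and its inhibitor therefore lay at ratios of -0.01 and 0.26, both inside the range of genes of similar level, -0.39 to 0.47.

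The activators of plasminogen were at or below background. Plat, which encodes tissue plasminogen activator, was above background in CKO liver only, with a deposited intensity of 4. Its raw spot intensity there was 74.3, just past the background limit of 72.2, so no direction is given for Plat. Plau, which encodes urokinase, was not above background in either liver. Its receptor Plaur, a surface protein of myeloid cells, had 14 in both livers.

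The 4 genes of modification and export were near equal, with ratios from -0.11 to 0.05. Ggcx, the carboxylase that gives vitamin K-dependent factors their calcium-binding residues, had 165 in CKO liver and 184 in Control liver (-0.09). Vkorc1, the reductase that recycles vitamin K and is the target of warfarin, had 2209 in CKO liver and 2248 in Control liver (0.02). Lman1 and Mcfd2, which together carry factors V and VIII out of the endoplasmic reticulum, had 609 in CKO liver and 624 in Control liver (0.05) and 301 in CKO liver and 340 in Control liver (-0.11).

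The 7 vitamin K-dependent genes, whose proteins the carboxylase Ggcx modifies, are F2, F7, F9, F10, Proc, Pros1 and Proz. Their median was 0.16, with 4 above 0 and 3 below, where 5963 of all 14143 genes lay above 0 and 8166 below. Pros1 is the 1 of the 7 past 1.5-fold.

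**Figure D3:**
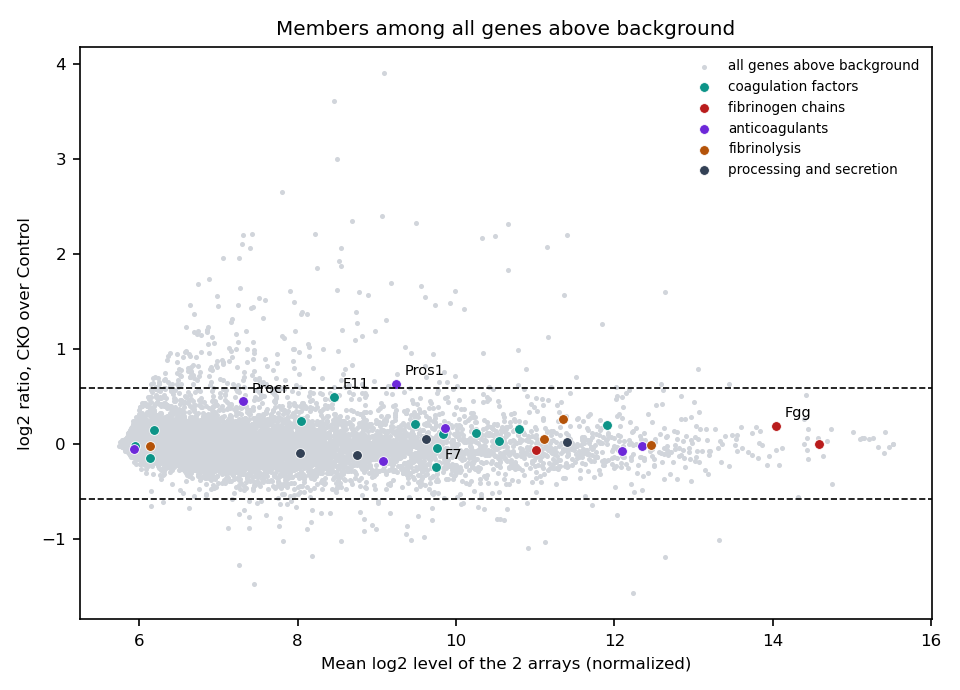
Log2 ratio of CKO over Control against the mean log2 level for all 14143 genes above background in both livers (grey) and the 31 genes of the list (coloured by role), with dashed lines at 1.5-fold. Pros1 is the only coloured point past a line, and the brightest points, the fibrinogen genes Fgb and Fgg, lie near 0.

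Split by the cell that mainly makes them, the hepatocyte genes of the list were the better measured ones. All 21 of those with a probe were above background in both livers, with a median ratio of 0.10 and 1 past 1.5-fold, Pros1. Which cells gave the Pros1 signal in whole liver was not tested. Of 10 genes made mainly by endothelial, myeloid or other cells, 6 were above background in both livers, with a median of -0.02. In whole liver fewer cells of a type and less RNA per cell cannot be told apart.

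F8, which encodes factor VIII and is made by liver endothelium, had 11 in CKO liver and 18 in Control liver, a normalized ratio of -0.15 and a deposited ratio of -0.71. Vwf, its carrier from endothelial cells, had 6 in CKO liver and 7 in Control liver and lay near background. Beside these values, 12 of 15 sinusoidal and vascular endothelial markers had ratios below 0 with 1 past 1.5-fold lower, and a median of -0.16. Over all 14143 genes 8166 had ratios below 0, with a median of -0.02. The endothelial markers listed on both arrays had a summed deposited intensity of 1501 in CKO liver and 2079 in Control liver. Clec4g alone gave 521 in CKO liver and 776 in Control liver of these sums. Oit3 (-0.64) and Clec4g (-0.48) had the lowest ratios, and Cdh5 was below background in both livers. Procr, also an endothelial gene, lay on the other side. The part of endothelial content in these values was not tested.

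F3, which encodes tissue factor, had 20 in CKO liver and 13 in Control liver, a normalized ratio of 0.15 and a deposited ratio of 0.62. F13a1, the enzymatic subunit of factor XIII and a gene of macrophages and platelets, was not above background in either liver, with a raw spot intensity of 71.1 in CKO liver and 68.0 in Control liver. Beside these, all 14 macrophage and monocyte markers above background in both livers had ratios above 0, 11 of them past 1.5-fold, with a median of 1.16. The markers listed on both arrays had a summed deposited intensity of 10161 in CKO liver and 3175 in Control liver, led by Marco (3.91) and Lyz2 (1.84), while Itgam was below background in both livers and Adgre1 was above it in CKO liver only. Platelet and megakaryocyte markers listed on both arrays summed to 280 in CKO liver and 186 in Control liver. Clec1b alone gave 148 in CKO liver and 76 in Control liver of these sums, which bright probes dominate. The median was 0.05 over 9 genes, with the largest ratios for Clec1b (0.69), which liver macrophages also make, and Pf4 (0.33). The part of these cells in the values of F3 and Plaur was not tested.

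**Figure D4:**
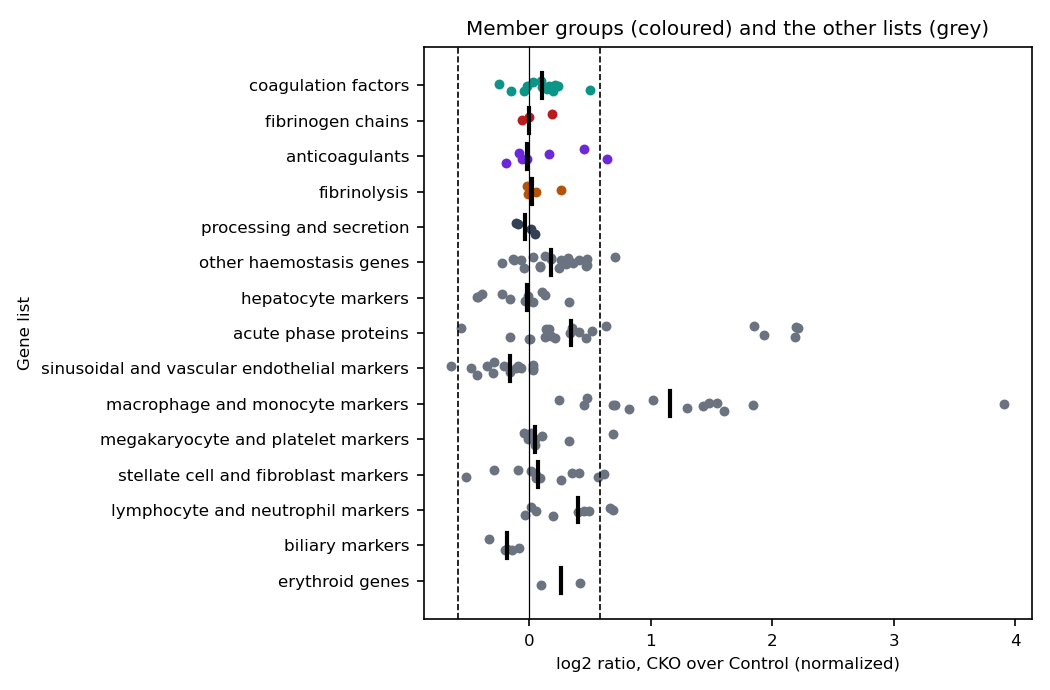
Log2 ratio of CKO over Control on the normalized scale for each gene above background in both livers, by list, with the median as a black bar and dashed lines at 1.5-fold. The 5 groups of clotting and fibrinolysis genes (coloured) have medians from -0.03 to 0.11, and the macrophage and monocyte markers have a median of 1.16.

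The remaining lists give the setting. Hepatocyte markers had a median of -0.02 over 12 genes with 0 past 1.5-fold, and Apoc3 (-0.43) and Tat (-0.42) differed most. Stellate cell and fibroblast markers had a median of 0.08 over 12 genes with Col1a2 (0.62) and Col3a1 (0.57) highest and Dcn (-0.52) lowest, and lymphocyte and neutrophil markers one of 0.40 over 9 genes with Gzma (0.69) and S100a9 (0.67). All 5 biliary markers had ratios below 0 (median -0.18, Krt19 -0.33, Krt7 -0.20), as did 8166 of all 14143 genes. The 2 erythroid genes above background were Hbb-bs (0.42) and Alas2 (0.10).

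Of 32 further genes of haemostasis, which bind or regulate the proteins above, 21 were above background in both livers. Of these 16 had ratios above 0 and 5 below, where 5963 of all 14143 genes lay above 0 and 8166 below. The median of the 21 was 0.18, and 1 was past 1.5-fold, Fgl1. Fgl2, a membrane-bound prothrombinase of immune and endothelial cells that was named after its value was seen, was dim, with 15 in CKO liver and 4 in Control liver. Its ratio was 0.30 on the normalized scale and 1.91 in the deposited values. Serpina10, which encodes the inhibitor that acts with protein Z, had 1135 in CKO liver and 988 in Control liver (0.25). The plasmin-generating pair S100a10 and Anxa2, which dock plasminogen at the cell surface, had ratios of 0.41 and 0.09. The asialoglycoprotein receptor genes Asgr1 and Asgr2, which clear desialylated plasma proteins, had ratios of -0.22 and -0.13.

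**Figure D5:**
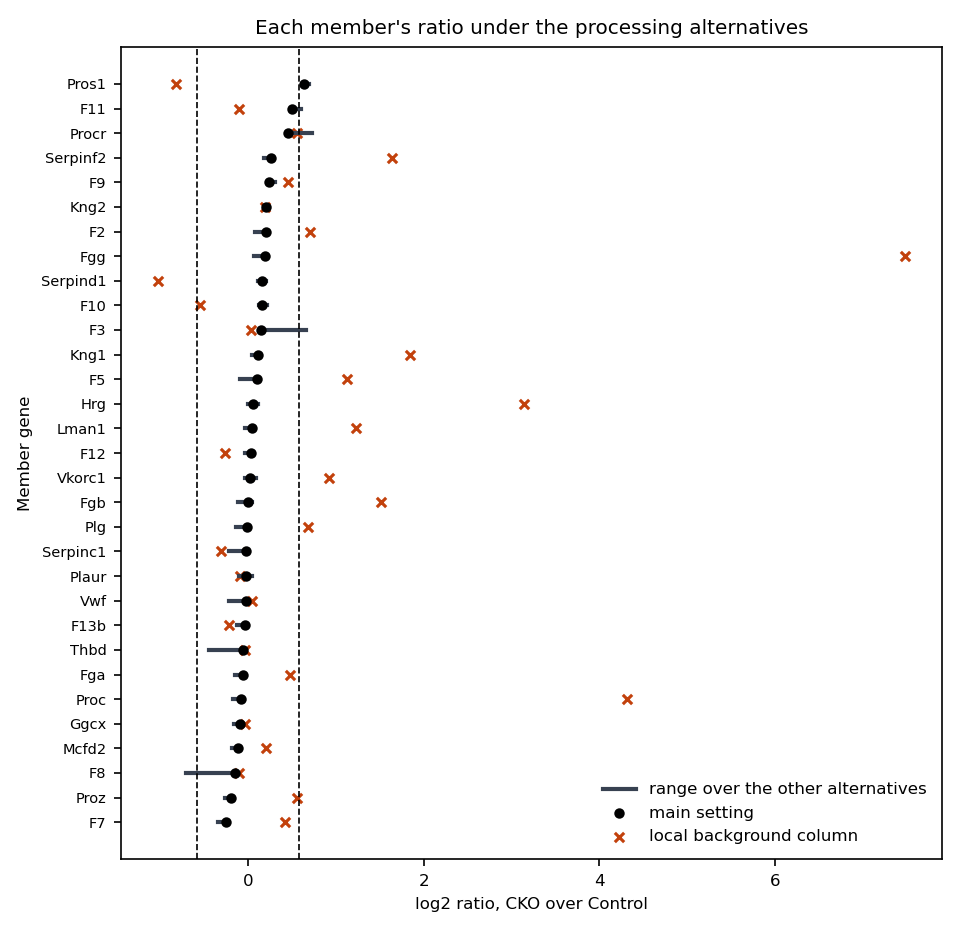
Log2 ratio of CKO over Control for each of the 31 genes under the main setting (dot), its range over the processing alternatives other than the local background column (bar), and its value against that column (cross), with dashed lines at 1.5-fold. The bars stay short for most genes, and the crosses spread up to 7.48 for Fgg.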

How the data were processed

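Total RNA of 2 liver samples, 1 per genotype, was amplified with amino allyl labelling and coupled to Cy5, per the labels' protocols. Per the file headers, the scanner files give median spot intensity and median surrounding intensity at 635 nm, combined from 3 gains. The deposited value table holds intensity on a linear scale; tested on the files, it is the spot intensity times 0.825 (CKO) or 0.859 (Control) minus a constant, within 0.514 and 1.54 units, with dim probes left blank and a median of 25 on both arrays. How the authors made it is not stated. It is not centred and holds levels, so direction is not in question.

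Intensities were background-corrected with normexp against the mean of 384 blank spots (69.3 in CKO, 67.2 in Control) with an offset of 50. They were then quantile-normalized, and log2 was taken afterwards (limma 3.58.1, R 4.3.3). Blank spots served because the local background followed the spot's own signal (r = 0.972 and 0.988 across gene spots on the log2 scale, CKO and Control). Flagged spots, 0 and 4, were left out. A probe was above background past the blank mean plus 2 SD (72.2 and 69.5), as 73.6% and 73.8% of 23469 probes were. A gene was the mean of its probes. The platform annotation gave 1 symbol to 20686 probes, none to 2783 and several to 0, and 20552 were found in RefSeq (GRCm38.p6), which supplied names, neighbours and promoters. Positive control spots varied by 0.136 to 0.191 (SD of log2 within an array).

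The genes, their roles, the lists and the 1.5-fold size were chosen with earlier results of these data known, and the split by cell of origin and the motifs after values were seen. All 37 genes may be named, others by the largest ratios of each list. Some are named outside this rule, after values were seen: Fgl2, Dcn, Serpina10, S100a10, Anxa2, Asgr1, Asgr2 and albumin. The procedure was tested on simulated arrays.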

Additional observations from a re-analysis of the deposited data

How the results depend on the processing

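No paired analysis was possible because each genotype has 1 array. Over 10 processing alternatives, no test bears on any value, and a value was taken as moved when it shifted by more than 0.133, the SD between probes of 1 gene (716 genes). The median of the 31 genes (0.03) and all 5 group medians moved by less than that under plain subtraction of the blank mean, an offset of 16, median scaling, cyclic loess, no filter on background, a restriction to genes of at least median level, the brightest probe and the centred deposited values. Under the deposited values without centring, the anticoagulant median was -0.17, with the median of all genes at -0.04. The number of genes at least 1.5-fold higher (1) and lower (0) became 3 and 1 with plain subtraction, 4 and 1 in the centred deposited values and 3 and 1 in those without centring. In these 3 settings, in that order, F11 was at 0.59, 0.60 and 0.56, Procr at 0.68, 0.73 and 0.69, F3 at 0.57, 0.66 and 0.62 and F8 at -0.63, -0.67 and -0.71, where 1.5-fold is a log2 ratio of 0.58. Apart from the local background column, 26 of 31 genes passed 1.5-fold in no alternative. Lifting the background filter or restricting by level cannot change a gene's own ratio, nor can the brightest probe for the 29 genes with 1 probe.

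Against the local background column the counts became 11 and 2, the median of all 31 genes 0.42, and the medians of the fibrinogen, fibrinolysis and modification groups 1.52, 1.16 and 0.56. Pros1 turned to -0.82 there, and 12 of 31 genes changed sign. For Fgg, at 7.48, that column read 39.2% of the spot's intensity in CKO liver and 107% in Control liver. F12, Hrg, Lman1 and Vkorc1 changed sign in the deposited values without centring, and F5 with its brightest probe (-0.09). Signal over background limits F3, F8, Vwf, Thbd and Plaur, whose ratios the offset shrinks.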
